A study of Homo sapiens with 18 samples.

Results

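The baseline RNA profiles of 22Rv1 and DU145, human prostate cancer cell lines, were compared in their control libraries: 3 libraries of 22Rv1 and 3 of DU145, 6 of the 18 RNA sequencing libraries of a study of EMD knockdown, chosen because their labels name a control of either line. The 22Rv1 libraries carried androgen-induced kallikreins, HOXB13, secretory-granule genes and a block of X-linked cancer-testis genes. The DU145 libraries carried RNA of vimentin, laminin-332, caveolins and cavins, the receptor kinase AXL, the urokinase system and the targets of YAP and TEAD. By the protocol, both groups had received a scrambled siRNA with a cationic lipid reagent, whose mix was replaced by medium after 24 hours. The DU145 knockdown columns are named for a short hairpin, so what the DU145 controls received is less certain. The medium was RPMI-1640 for 22Rv1 and DMEM for DU145, in both cases with fetal bovine serum. No genotype beyond the line is given, and each line stands for 1 tumour. The 3 libraries of a group are described as triplicates without saying whether they were separate cultures, so p-values measure the spread between these libraries, which may be technical.

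22Rv1 was established from a human xenograft that relapsed after castration of its mouse host, and DU145 from a brain metastasis. In the prostate, luminal cells secrete kallikreins in response to androgen, and FOXA1 and HOXB13 are among the transcription factors of that lineage. Basal cells sit beneath them, anchored to the basement membrane by laminin-332, integrin alpha-6 beta-4 and collagen XVII. DU145 is widely used as a model of prostate cancer that grows without androgen and does not respond to it, and 22Rv1 as one that still responds.

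Of 21950 genes present in the tables of both lines, 17640 passed the filter on low counts and were tested with edgeR's quasi-likelihood test, with Benjamini-Hochberg adjustment over all of them (called edgeR adjusted p hereafter). Levels are CPM, counts over a library total scaled by the trimmed mean of M-values (TMM), as the mean ± SD of the 3 libraries of a line (n = 3), and are compared between lines and never between genes, since they are not per length. Differences are log2 of 22Rv1 over DU145, so positive values are higher in 22Rv1, and errors of differences are standard errors (SE). At an adjusted p under 0.05, 7673 genes were higher in 22Rv1 (43.5% of those tested) and 7633 were higher in DU145 (43.3%), together 86.8%. The 3 libraries of 1 line lay wholly above the 3 of the other for 15468 genes (87.7%). With nearly all genes past the threshold, the size of a difference says more than its p. The shares 43.5%, 43.3% and 87.7% are the background for the counts of list members and the statements of no overlap below. A large difference, called and at least 4-fold, was found for 2802 genes in favour of 22Rv1 (15.9%) and for 2490 in favour of DU145 (14.1%), 30% in all. The median log2 difference over the tested genes was -0.01. Scaling by library totals alone moved that median by 0.206 and the share of calls that favour 22Rv1 from 50.1% to 56.4%, so log2 differences of about that size have no firm direction.

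Library totals ran from 15602874 to 30788078 reads in 22Rv1 and from 21024352 to 43311727 in DU145. Pearson correlations of log2 CPM were 0.987 to 0.994 between libraries of a line and 0.709 to 0.724 between lines. These are correlations across genes, which are not independent replicates. Reads of the 13 mitochondrially encoded protein genes took 0.767% to 0.953% of the 22Rv1 libraries and 8.94% to 9.12% of the DU145 libraries. Line, batch label, table, gene set of the table and culture medium coincide, and cannot be told apart in any value below. A line with 0 reads for a gene is given a limit of 3 reads over its 3 libraries, and the fold is then a lower bound. For 1 to 3 reads the reads are stated, and any ratio is given with its 95% Poisson interval. Bounds and intervals cover counting error only, since no molecular identifiers were read and reads may be copies of 1 molecule.

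The labelled cell types were checked against defining markers. Of the luminal markers, HOXB13, KLK2 and KLK3 were high in 22Rv1 and at or near 0 in DU145, while KRT8 and KRT18 were abundant in both lines. Of 4 basal markers, KRT5 was at 0 in DU145 and KRT14 is absent from the 22Rv1 table, and the sums stayed at 1.54 to 2.66 CPM in 22Rv1 and 5.20 to 6.42 CPM in DU145. Markers of endothelial cells summed to at most 1.09 CPM in 22Rv1 and 1.81 CPM in DU145, and those of blood cells to at most 3.72 and 0.731 CPM. The 5 fibroblast markers summed to 23.1 to 27.2 CPM in 22Rv1, nearly all of it COL1A1, and to 3.46 to 5.28 CPM in DU145. In libraries of whole cultures, fewer cells that express a gene and less RNA per cell cannot be told apart.

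Transcription factors and cofactors of the luminal lineage were mostly higher in 22Rv1. Of 15 such genes, all tested, 13 were higher in 22Rv1 and 1 in DU145, and the median log2 difference was 1.99 against -0.01 over all genes. The 1 call in favour of DU145, NCOA2, a coactivator of nuclear receptors, had a log2 difference of -0.21 and was no longer called with library totals. HOXB13 (chr17:48724763-48729178 on GRCh38, minus strand, ENSG00000159184), a posterior homeobox factor of the prostate, was read at 391, 396 and 378 CPM in 22Rv1 and had 0 reads in all 3 DU145 libraries, at least 11715-fold higher in 22Rv1.

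Most epithelial factors of this group were also higher in 22Rv1. GRHL2, a grainyhead factor that maintains epithelial junction genes, was at 121 ± 6.72 CPM in 22Rv1 and 0.348 ± 0.105 CPM in DU145. The epithelial ETS factors EHF and ELF3 had log2 differences of 7.95 and 5.90, and SPDEF, another ETS factor of secretory epithelium, one of 4.97. FOXA1, a pioneer factor that opens chromatin, was present in both lines, at 343 ± 15.3 CPM in 22Rv1 and 98 ± 5.46 CPM in DU145, and GATA2 likewise at 202 ± 9.61 and 42.7 ± 0.165 CPM. KLF5, a zinc finger factor of basal and luminal cells, did not pass the threshold (59.7 against 64.5 CPM).

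**Figure D1:**
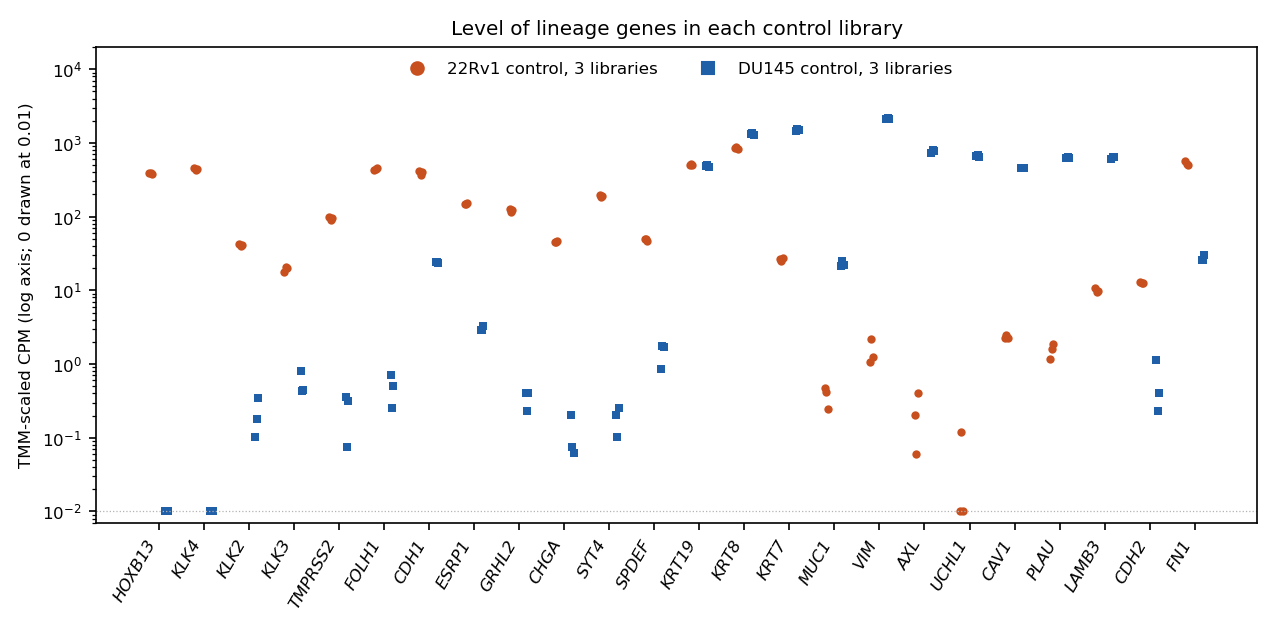
TMM-scaled CPM of 24 lineage genes (log axis, 0 drawn at 0.01) in each of the 3 22Rv1 control libraries (circles) and 3 DU145 control libraries (squares). HOXB13 and the kallikreins sit high only in the circles and VIM, AXL and UCHL1 only in the squares, while KRT19 and KRT8 are high in both.

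Genes that androgen is known to induce were higher in 22Rv1 for 19 of 24 tested members and higher in DU145 for 3, with a median log2 difference of 2.64; TRPM8 fell below the filter. KLK4 (chr19:50906352-50910738, minus strand), a kallikrein serine protease, was read at 450.2, 435 and 437 CPM in 22Rv1 and at 0 in the 3 DU145 libraries, at least 13384-fold higher. KLK2 was at 42.2, 39.4 and 41.5 CPM in 22Rv1 and 0.102, 0.177 and 0.347 CPM in DU145. KLK3, which encodes prostate-specific antigen, was at 17.7, 20.5 and 19.9 CPM in 22Rv1 and 0.815, 0.429 and 0.441 CPM in DU145. For both genes every 22Rv1 library exceeded every DU145 library, with log2 differences of 7.52 (SE 0.15) and 5.20 (SE 0.17). KLK2 and KLK3 are close paralogs, so expectation-maximization counting could move reads between them.

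Their promoters are shown because the same 13 letters of a loose androgen response element stand in both. The element searched on both strands was GNACA and GTNC with 4 bases between them, found in 1.81% of 35116 RefSeq promoters in the 250 bases before the start (GRCh38.p14). The capitals mark the match, which lies 169 to 157 bases before the KLK3 start and 175 to 163 bases before the KLK2 start. The windows are chr19:50854665-50854914 and chr19:50873189-50873438, both on the plus strand, and a match describes letters and not a bound site.
KLK3: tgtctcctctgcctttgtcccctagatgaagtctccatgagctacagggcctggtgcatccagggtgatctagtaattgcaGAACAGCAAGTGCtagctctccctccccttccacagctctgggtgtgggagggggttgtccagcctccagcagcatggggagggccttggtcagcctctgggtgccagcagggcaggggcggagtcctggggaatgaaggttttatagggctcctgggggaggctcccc
KLK2: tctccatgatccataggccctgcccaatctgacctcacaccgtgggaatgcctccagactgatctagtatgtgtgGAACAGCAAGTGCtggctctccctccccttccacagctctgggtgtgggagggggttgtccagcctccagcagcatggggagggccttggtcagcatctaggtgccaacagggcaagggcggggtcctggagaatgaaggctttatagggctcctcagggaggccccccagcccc

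Other androgen-induced genes showed the same order with a wider range. TMPRSS2, a surface serine protease whose androgen-driven promoter is often fused to ETS genes in prostate cancer, was at 99.2, 89.8 and 95.2 CPM in 22Rv1 and 0.357, 0.0758 and 0.315 CPM in DU145 (log2 difference 8.72, SE 0.14). TRGC1, in whose locus the prostate transcript TARP arises, was at 5.7 ± 0.833 CPM in 22Rv1 and at 0 in DU145, at least 177-fold higher. ZBTB16, a zinc finger repressor induced by steroid receptors, was at 123 against 1.69 CPM. PMEPA1, which dampens TGF-beta signalling, was at 639 ± 31.2 against 59.3 ± 1.29 CPM. FKBP5, a co-chaperone of steroid receptors, differed less, at 311 ± 16.2 CPM in 22Rv1 and 161 ± 1.15 CPM in DU145 (log2 difference 0.95, SE 0.044). The 3 members higher in DU145 were ALDH1A3, a retinaldehyde dehydrogenase (log2 difference -3.52), ABCC4, an efflux transporter (-3.28), and MBOAT2, a lysophospholipid acyltransferase (-2.14). They were named after their values were seen.

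Of 20 genes that make or inactivate androgens, 11 could be tested, 7 are absent from the 22Rv1 table and 2 were below the filter. Of the 11, 8 were higher in 22Rv1 and 1 in DU145, with a median log2 difference of 1.03. The glucuronosyltransferases that tag androgens for removal stood out: UGT2B15 was at 15.2 ± 1.77 CPM in 22Rv1 and 0.412 ± 0.176 CPM in DU145. UGT2B28 had 1833 reads in 22Rv1 and 3 in DU145, a ratio of 701 (95% interval 240.0 to 3401). AKR1C2, which reduces dihydrotestosterone, was at 9.48 ± 0.223 against 0.156 ± 0.096 CPM. Members of both families are near-identical in parts, so reads may be shared among copies. HSD17B4 and HSD17B10, hydroxysteroid dehydrogenases of peroxisomes and mitochondria, were present in both lines, with log2 differences of 0.87 and 1.03. STS, the steroid sulfatase that frees stored steroid, went the other way, at 1.26 ± 0.497 CPM in 22Rv1 and 14.5 ± 0.416 CPM in DU145. HSD3B1, SRD5A2 and CYP17A1 had 1, 4 and 9 reads over the 3 DU145 libraries and no entry in the 22Rv1 table.

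Luminal epithelial identity outside the androgen response was divided between the lines. Of 18 tested members, 10 were higher in 22Rv1 and 6 in DU145, with a median log2 difference of 0.93. CDH1, the adhesion molecule E-cadherin, was read at 414, 369 and 398 CPM in 22Rv1 and 23.8, 24.5 and 23.7 CPM in DU145 (log2 difference 4.03, SE 0.054). ESRP1, which directs epithelial splicing, was at 149.6, 149 and 154 CPM in 22Rv1 and 2.9, 2.85 and 3.25 CPM in DU145. AGR2, a disulfide isomerase of mucus-secreting cells, was at 10.8 ± 0.641 against 0.144 ± 0.0536 CPM. No library of DU145 reached the level of any 22Rv1 library in these 3 genes. Simple keratins went differently: KRT8 was at 859.6 ± 28 CPM in 22Rv1 and 1321 ± 47.6 CPM in DU145, KRT18 at 302 ± 0.656 and 821 ± 30.5 CPM, and KRT19 did not pass the threshold (510.2 ± 13.2 against 489 ± 16.1 CPM). KRT19 was called higher in 22Rv1 with library totals (log2 difference 0.27, edgeR adjusted p = 5.19e-06), with 12 libraries (0.0464) and without replicate 2 of DU145 (0.0376). KRT8 and KRT18 have processed copies in the genome, and the 22Rv1 table lists 2028 pseudogenes of GENCODE 29 where the DU145 table lists 36, so the share of their reads given to copies may differ between tables; this was not tested.

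The luminal members that favoured DU145 were larger in difference. KRT7, a keratin of simple ducts, was read at 27, 25.1 and 27.2 CPM in 22Rv1 and 1453, 1539.6 and 1502 CPM in DU145 (log2 difference -5.82, SE 0.053). MUC1, a membrane mucin, was at 0.376 ± 0.115 against 22.6 ± 1.95 CPM. All DU145 libraries were far above all 22Rv1 libraries for both genes.

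Basal genes favoured DU145, although the basal keratins KRT5 and KRT14 were at or near 0. Of 13 tested members 12 were higher in DU145 and 1 in 22Rv1, with a median log2 difference of -5.39; 6 members, among them KRT14, KRT17 and KRT6A, are absent from the 22Rv1 table and had at most 49 reads over the DU145 controls. Parts of the hemidesmosome and of its laminin ligand were higher in DU145. LAMA3 and LAMB3, chains of laminin-332, were at 1.11 ± 0.408 and 9.96 ± 0.676 CPM in 22Rv1 and 125 ± 4.52 and 631 ± 21.8 CPM in DU145. Its receptor chains ITGA6 and ITGB4 had log2 differences of -5.49 (SE 0.068) and -3.13 (SE 0.076). COL17A1, the transmembrane collagen of the hemidesmosome, was at 0.0668, 0.0593 and 0.0925 CPM in 22Rv1 and 21.5, 23.7 and 25.6 CPM in DU145. DST, whose epithelial product is a plakin that ties keratin to the hemidesmosome, was at 37.4 ± 6.73 against 1012 ± 66.5 CPM. TP63, the master factor of basal cells, stayed low in DU145 with 120 reads over 3 libraries, against 1 in 22Rv1. NGFR, the low-affinity neurotrophin receptor and the 1 basal gene higher in 22Rv1, was at 31.2, 33.5 and 32.2 CPM there and 0.204, 0.151 and 0.063 CPM in DU145.

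Adherens and tight junction genes, 25 tested, were higher in 22Rv1 for 14 and in DU145 for 9, with a median log2 difference of 0.55. The claudins divided: CLDN7 was at 286 ± 6.62 CPM in 22Rv1 and 6.12 ± 0.677 CPM in DU145, and CLDN4 had a log2 difference of 4.47, while CLDN1 was at 0.598 ± 0.156 against 125 ± 3.46 CPM. The zonula occludens scaffolds divided as well. TJP3 was at 101, 104 and 98.7 CPM in 22Rv1 and 0.917, 0.808 and 0.851 CPM in DU145, whereas TJP1 was at 39.5, 38.3 and 38.5 CPM in 22Rv1 and 344, 369.6 and 375 CPM in DU145 (log2 difference -3.23, SE 0.049). Of the cadherin-catenin complex, CTNNB1, which encodes beta-catenin, was at 413 ± 6.04 against 243 ± 7.02 CPM, JUP (plakoglobin) at 215 ± 11.6 against 42.9 ± 2.21 CPM, and CTNNA1 did not pass the threshold (348 against 367 CPM).

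Mesenchymal genes did not form 1 direction either. Of 22 members 15 were tested, 8 of them higher in DU145 and 5 in 22Rv1, with a median log2 difference of -1.12. Another 4 were below the filter. TWIST2, SNAI2 and CDH11 are absent from the 22Rv1 table and had 1239, 86 and 51 reads over the DU145 controls. VIM, the intermediate filament vimentin (chr10:17228259-17237593, plus strand), was read at 1.07, 2.19 and 1.23 CPM in 22Rv1 and 2128, 2165 and 2082 CPM in DU145, a log2 difference of -10.58 (SE 0.11, edgeR adjusted p = 1.35e-18). The repressors of E-cadherin ZEB1 and ZEB2 followed it: ZEB1 was at 0.147 ± 0.105 against 52.1 ± 1.99 CPM, and ZEB2 had 1 read in 22Rv1 and 368 in DU145. TGFBI and LOXL2, a matrix protein and a matrix cross-linking enzyme, had log2 differences of -6.16 and -4.34. Other classic mesenchymal genes were higher in 22Rv1. FN1 (fibronectin) was at 561, 522 and 506 CPM in 22Rv1 and 25.6, 25.4 and 30.6 CPM in DU145. CDH2 (N-cadherin) was at 13.1, 12.4 and 12.5 CPM in 22Rv1 and 1.12, 0.227 and 0.41 CPM in DU145, and TWIST1, a bHLH factor, had a log2 difference of 4.98. So the line with more E-cadherin RNA also had more N-cadherin and fibronectin RNA.

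Neuroendocrine genes, whose products build secretory granules and neuronal RNA processing, were higher in 22Rv1 for 18 of 22 tested members and higher in DU145 for 3. The median log2 difference was 3.97. In a fit of 18 libraries, which holds only genes that the C4-2B table lists too, 11 members were tested and 8 of them were higher in 22Rv1; with no filter or with 12 libraries, 5 members were higher in DU145. SYT4, a synaptotagmin of dense-core vesicles, was read at 196, 183 and 192 CPM in 22Rv1 and 0.204, 0.101 and 0.252 CPM in DU145. CHGA, the granule protein chromogranin A, was at 44.6, 45.5 and 46.5 CPM in 22Rv1 and 0.204, 0.0758 and 0.063 CPM in DU145, a log2 difference of 8.78 (SE 0.16). Around them, CHGB, SCG3 and the prohormone convertase PCSK1 had log2 differences of 7.02, 8.19 and 7.87, and SYP (synaptophysin) one of 5.94. SRRM4, the neural splicing factor, was at 37 ± 3.33 against 0.815 ± 0.292 CPM, and ONECUT2, a homeobox factor, at 52.1 ± 6.9 against 2.48 ± 0.342 CPM. NEUROD1, a proneural factor, is absent from the 22Rv1 table, and INSM1, a zinc finger factor of neuroendocrine cells, had 66 reads in 22Rv1 and 3 in DU145, a ratio of 25.3 (95% interval 8.64 to 122). PEG10, an imprinted retrotransposon-derived gene, was high in both lines at 657 ± 38 and 355 ± 14.2 CPM.

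The 3 neuroendocrine members higher in DU145 were UCHL1, NKX2-1 and NCAM1. UCHL1 (chr4:41256413-41268455, plus strand), a ubiquitin hydrolase of neurons, was read at 670.0, 676 and 653 CPM in the DU145 libraries and had 2 reads in 22Rv1 against 60674 in DU145. That is a ratio of 26432 in favour of DU145, with a 95% interval of 7317 to 218253. NKX2-1, a homeobox factor of lung and thyroid, was at 8.35 ± 0.517 CPM in 22Rv1 and 132 ± 4.45 CPM in DU145. NCAM1, a neural adhesion molecule, had 2 reads in 22Rv1 and 174 in DU145.

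Surface antigens used as targets in prostate cancer were tested for 18 of 20 members, 11 higher in 22Rv1 and 6 in DU145. FOLH1, which encodes prostate-specific membrane antigen, was at 434, 437 and 451 CPM in 22Rv1 and 0.713, 0.253 and 0.504 CPM in DU145, a log2 difference of 9.95 (SE 0.10). STEAP1 was at 45.9 ± 3.61 against 11.6 ± 1.01 CPM, and DLL3, a Notch ligand of neuroendocrine tumours, at 30.6 ± 3.19 against 6.08 ± 0.322 CPM. CD276 (B7-H3) and CD46, a complement regulator, were present in both lines with log2 differences of 0.86 and 0.91. On the DU145 side stood F3 (tissue factor, 1.999 against 78.8 CPM), ROR1 (6.63 against 72.3 CPM) and EPHA2 (129 ± 5.09 against 374 ± 6.13 CPM). PSCA, a GPI-anchored prostate antigen, was low in both at 2.07 and 3.36 CPM.

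Receptor tyrosine kinases and their ligands gave 13 members higher in 22Rv1 and 12 in DU145 of 27 tested. Their median log2 difference, -0.04, became 0.17 with library totals. AXL (chr19:41219203-41261766, plus strand), the TAM-family receptor for GAS6, was read at 0.2004, 0.0593 and 0.401 CPM in 22Rv1 and 722, 793 and 765 CPM in DU145, a log2 difference of -11.53 (SE 0.12, edgeR adjusted p = 1.94e-21). Its relatives were unlike it: TYRO3 was at 64.9 against 35 CPM and MERTK did not pass the threshold (12.6 against 13 CPM). The collagen receptors exchanged places, DDR1 with a log2 difference of 1.75 and DDR2 with one of -6.86. RET was at 14, 13.8 and 14 CPM in 22Rv1 and 0.204, 0.101 and 0.189 CPM in DU145. FGFR3 was at 134 ± 4.14 against 2.36 ± 0.451 CPM and FGFR1 at 58.4 ± 4.29 against 122 ± 2.78 CPM.

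EGFR was higher in 22Rv1, while several of its ligands were higher in DU145. EGFR, the receptor for EGF and its relatives, was read at 946, 800.0 and 847 CPM in 22Rv1 and 359, 392 and 389 CPM in DU145, higher in every 22Rv1 library (log2 difference 1.18, SE 0.057). ERBB3, its partner that binds neuregulin, was at 192 ± 7.92 against 16.3 ± 0.688 CPM, and ERBB2 had a log2 difference of 0.40. Of the ligands, AREG was at 0.849 ± 0.108 CPM in 22Rv1 and 63.1 ± 3.75 CPM in DU145, TGFA at 6.37 ± 0.29 and 74.8 ± 2.25 CPM, and HBEGF at 4.94 ± 0.0759 and 49.1 ± 1.87 CPM. EREG was at 92.6 ± 2.39 CPM in DU145, scaled by library totals, and is absent from the 22Rv1 table. EGF itself was low in both lines, at 2.07 and 0.939 CPM, and was called higher in 22Rv1 like the receptor (log2 difference 1.13, edgeR adjusted p = 0.0021). The scatter factor pair was also divided: its ligand HGF was at 13, 10.02 and 13.7 CPM in 22Rv1 and 0.255, 0.227 and 0.378 CPM in DU145, and its receptor MET was at 13.4, 11 and 13.4 CPM in 22Rv1 and 294, 310.2 and 307 CPM in DU145.

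Genes of caveolae, the membrane pits built from caveolins and cavins, were mostly higher in DU145. CAV1 was read at 2.27, 2.49 and 2.28 CPM in 22Rv1 and 456, 462 and 457 CPM in DU145, and CAVIN1 at 7.15, 6.22 and 6.23 CPM in 22Rv1 and 1662, 1717 and 1654 CPM in DU145, log2 differences of -7.62 (SE 0.064) and -8.0 (SE 0.062). CAV2 and the caveolar ATPase EHD2 had log2 differences of -5.43 and -5.70. CAVIN2 and CAVIN3 were at 156 and 26.3 CPM in DU145 and are absent from the 22Rv1 table. Of the 6 tested members 4 were higher in DU145, 1 in 22Rv1 (PACSIN2, a membrane-bending protein found well beyond caveolae, 0.85), and the median log2 difference was -5.57.

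Integrins were higher in DU145 for 10 of 18 tested members and in 22Rv1 for 7, with a median log2 difference of -1.61. ITGB1, the common beta chain, was at 286, 279.5 and 288 CPM in 22Rv1 and 2407, 2406 and 2384 CPM in DU145, and ITGA3, its partner for laminin-332, at 31.4, 31.3 and 28.9 CPM in 22Rv1 and 1229, 1303 and 1274 CPM in DU145. Each DU145 library lay above each 22Rv1 library for both, with log2 differences of -3.08 (SE 0.041) and -5.38 (SE 0.053). The vitronectin chain ITGAV did not pass the threshold (129 ± 3.97 against 125 ± 3.36 CPM), and its partner ITGB5 had a log2 difference of 0.64. ITGA7, which like ITGA3 pairs with ITGB1 to bind laminins, and ITGA9 were higher in 22Rv1, at 28.1 and 8.09 CPM against 1.53 and 0.426 CPM, and so was ITGB7, a leukocyte beta chain, at 2.66 ± 0.166 against 0.0337 ± 0.0583 CPM.

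Matrix proteases and the urokinase system favoured DU145 in 13 of 17 tested members and 22Rv1 in 3 (median log2 difference -1.58). PLAU, the urokinase that activates plasminogen, was at 1.17, 1.6 and 1.85 CPM in 22Rv1 and 626, 653 and 633 CPM in DU145, and its receptor PLAUR at 4.01 ± 0.469 against 91.9 ± 3.62 CPM. MMP1, an interstitial collagenase (chr11:102789920-102798160, minus strand), had 3 reads in 22Rv1 and 7740 in DU145, a ratio of 2248 in favour of DU145 (95% interval 769 to 10900.1). The membrane-bound proteases MMP14 and ADAM9 had log2 differences of -3.91 and -1.58. Among inhibitors, TIMP3 was at 6.29 ± 0.721 CPM in 22Rv1 and 0.169 ± 0.0953 CPM in DU145, while TIMP2 had a log2 difference of -1.57.

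YAP and TAZ are coactivators held in the cytoplasm by the Hippo kinases, and in the nucleus they act through TEAD factors. Of 23 genes of this pathway, targets and components together, 21 were higher in DU145 and 2 in 22Rv1, with a median log2 difference of -2.94; AXL, F3 and TGFB2 are also members of other lists here. CCN1 was read at 6.88, 6.88 and 6.2 CPM in 22Rv1 and 553, 554 and 538 CPM in DU145. CCN2, its matricellular relative, was at 0.735, 0.652 and 0.832 CPM in 22Rv1 and 48.3, 52.7 and 49.4 CPM in DU145. ANKRD1, an ankyrin-repeat cofactor, was at 0.468, 0.652 and 0.432 CPM in 22Rv1 and 197, 190.4 and 191 CPM in DU145. In all 3 genes the groups were far apart, with log2 differences of -6.37 (SE 0.059), -6.05 (SE 0.11) and -8.60 (SE 0.090). MYOF, a ferlin of membrane repair, was at 2.52 ± 0.49 against 888 ± 25.9 CPM, and NT5E, the ectoenzyme CD73, at 1.44 ± 0.324 against 243 ± 6.2 CPM. The coactivators differed less than these targets. YAP1 had a log2 difference of -1.38 and WWTR1, which encodes TAZ, one of -3.33, beside the list median of -2.94. The TEAD factors were not uniform, TEAD1 at 54.9 against 336 CPM, TEAD4 at 19.9 against 32.9 CPM and TEAD2 at 67.7 against 25.4 CPM.

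The promoters of CCN2 and ANKRD1 are shown because the TEAD core recurs in them. The motif searched on both strands was GGAATG. At least 1 match stood in 11.9% of the 35116 promoters, at least 2 in 0.94% and at least 3 in 0.0826%. Capitals mark 3 matches before CCN2 (chr6:131951373-131951622, minus strand) and 2 before ANKRD1 (chr10:90921088-90921337, minus strand), in the 250 bases before each start.
CCN2: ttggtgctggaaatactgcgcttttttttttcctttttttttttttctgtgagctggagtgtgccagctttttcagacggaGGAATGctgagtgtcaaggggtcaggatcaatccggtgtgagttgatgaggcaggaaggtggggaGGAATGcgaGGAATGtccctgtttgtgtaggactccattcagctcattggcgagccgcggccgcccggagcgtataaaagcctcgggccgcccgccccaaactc
ANKRD1: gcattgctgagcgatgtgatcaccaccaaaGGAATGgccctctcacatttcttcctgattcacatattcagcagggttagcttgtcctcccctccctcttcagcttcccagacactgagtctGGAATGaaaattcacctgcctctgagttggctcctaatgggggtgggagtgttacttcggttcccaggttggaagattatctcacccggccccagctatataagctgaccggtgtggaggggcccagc

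Targets of NF-kB, cytokines and chemokines were higher in DU145 for 12 of 18 tested members and in 22Rv1 for 3, with a median log2 difference of -2.53; 10 members are absent from the 22Rv1 table. CXCL8, the neutrophil chemokine interleukin-8, was read at 70.3, 75.5 and 67.4 CPM in DU145 and had 3 reads in 22Rv1 against 6511, a ratio of 1891 in favour of DU145 (95% interval 647 to 9169). IL18 had 2 reads in 22Rv1 and 3764 in DU145, a ratio of 1639.7 in favour of DU145 (95% interval 454 to 13539.7). ICAM1, the leukocyte adhesion receptor, was at 2.73 ± 0.11 against 202 ± 6.86 CPM, and BIRC3, an inhibitor of apoptosis, at 1.3 ± 0.318 against 104 ± 4.71 CPM. Of the pathway's own brakes and subunits, TNFAIP3 (A20) had a log2 difference of -5.35, RELB one of -3.10 and RELA one of -0.58. NFKBIA did not pass the threshold (163 against 171 CPM). CXCL16, TNF and PTGS2 were the members higher in 22Rv1, at 65.9, 0.733 and 2.2 CPM against 10.5, 0.0443 and 0.415 CPM. With library totals 5 members favoured 22Rv1. CXCL1 and CXCL2 were at 6.10 and 8.61 CPM in DU145 and are among the absent members.

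The CXCL8 promoter is shown for its pair of inflammatory motifs. An AP-1 element (TGANTCA, in 6.57% of promoters) and an NF-kB element (GGAATTTCC, in 0.413%) are marked in capitals, 137 to 131 and 91 to 83 bases before the start (chr4:73740319-73740568, plus strand).
CXCL8: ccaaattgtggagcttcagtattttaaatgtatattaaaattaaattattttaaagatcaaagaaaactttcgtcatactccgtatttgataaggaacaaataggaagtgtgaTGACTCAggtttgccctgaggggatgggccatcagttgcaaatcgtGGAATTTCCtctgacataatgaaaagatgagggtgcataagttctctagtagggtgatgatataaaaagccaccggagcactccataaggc

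Interferon-response and antigen-presentation genes were higher in DU145 for 18 of 34 tested members and in 22Rv1 for 13, with a median log2 difference of -0.89. The induced genes divided by family. IFIT3, IFIT1 and IFIT2, RNA-binding effectors, had log2 differences of -7.18, -5.96 and -3.96. BST2 (tetherin) had 1427 reads in 22Rv1 and 1 in DU145, a ratio of 1638 in favour of 22Rv1 (95% interval 294 to 64692), and ISG15 was at 197, 212 and 189.8 CPM in 22Rv1 and 15.1, 13.2 and 13.2 CPM in DU145. IFITM1, IFITM2 and IFITM3, near-identical membrane restriction factors whose reads may be shared, were higher in 22Rv1 by log2 differences of 6.03, 1.08 and 2.73. JAK1, the kinase that interferon receptors use, was at 5.81, 4.98 and 5.36 CPM in 22Rv1 and 100.1, 104 and 103 CPM in DU145. Of class I presentation, HLA-B had a log2 difference of -0.83 and HLA-C one of 0.49, and B2M, their light chain, was at 198 ± 10.8 against 383 ± 9.99 CPM. The peptide loader TAPBP and the transporter chain TAP2 were higher in DU145 (-1.77 and -2.56), the other chain TAP1 in 22Rv1 (0.77). The DNA sensor CGAS and its adaptor STING1 were at 42.8 and 19.2 CPM in DU145 and are absent from the 22Rv1 table.

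The TGF-beta and activin family was close to even, with 14 of 25 members higher in 22Rv1, 10 in DU145 and a median log2 difference of 0.27. Ligands were found on both sides. The activin and BMP genes INHBB, INHBA, BMP2 and BMP7 were higher in 22Rv1, INHBB at 23.4, 22.6 and 20.3 CPM there and 0.255, 0.0758 and 0.0945 CPM in DU145, BMP2 at 38.3, 35 and 37.3 CPM and 0.408, 0.177 and 0.126 CPM. TGFB1 and TGFB2 were higher in DU145, with log2 differences of -1.62 and -2.83. TGFBR2, the receptor that binds TGF-beta first, was at 1.2, 1.3 and 1.48 CPM in 22Rv1 and 111, 119 and 122 CPM in DU145 (log2 difference -6.45, SE 0.087), and its partner TGFBR1 had a log2 difference of -1.26. SMAD3, an effector of TGF-beta and activin receptors, was at 36.5 ± 1.62 against 206 ± 8.82 CPM. ID3 and ID1, direct targets of BMP signalling, were at 368 ± 9.81 against 52.4 ± 1.85 CPM and at 209 ± 12.6 against 173 ± 2.16 CPM.

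Genes of growth arrest and apoptosis that cellular stress induces were higher in 22Rv1 for 19 of 29 members and in DU145 for 7 (median log2 difference 0.87). GDF15, a secreted stress cytokine, was read at 199, 204 and 170.0 CPM in 22Rv1 and 0, 0.101 and 0.0315 CPM in DU145, a log2 difference of 11.65 (SE 0.18, edgeR adjusted p = 5.11e-16). CDKN1A, the cyclin-dependent kinase inhibitor p21, was at 278, 277 and 266 CPM in 22Rv1 and 68.3, 73.9 and 64 CPM in DU145. BBC3 (PUMA), a killer BH3 protein, was at 80.5 ± 2.37 against 1.06 ± 0.124 CPM, and SPATA18, which acts in mitochondrial quality control, at 8.42 ± 1.55 against 0.156 ± 0.0701 CPM. MDM2, a ubiquitin ligase, had a log2 difference of 0.96. PLK2, a polo-like kinase, and FAS, a death receptor, were more than 4-fold higher in DU145, with log2 differences of -4.06 and -2.03.

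The RB circuit, in which cyclin D kinases release E2F from RB, had 10 of 20 members higher in 22Rv1 and 7 in DU145. CDKN2A, which encodes p16 and ARF, was at 35.1, 43.6 and 35.3 CPM in 22Rv1 and 393, 399 and 389.8 CPM in DU145 (log2 difference -3.39, SE 0.067). CCND1 was at 2136 ± 79 against 594 ± 10.3 CPM and its kinase CDK4 at 277 ± 4.99 against 85.8 ± 2.72 CPM, while CDK6 did not pass the threshold (51 against 53.6 CPM). CDKN1C (p57) was at 57.4 ± 1.75 against 0.732 ± 0.0229 CPM. RB1 was at 56.3 ± 3.62 CPM in 22Rv1 and 78 ± 2.57 CPM in DU145, a log2 difference of -0.47. The median of the list was 0.15.

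Mismatch repair genes, all 9 tested, were higher in DU145 for 7 and in 22Rv1 for 2, with a median log2 difference of -0.93. Of the MutL genes, PMS2 had a log2 difference of -0.21 and MLH3 one of -1.29. On the recognition side, MSH6 was at 81.5 ± 3.34 against 156 ± 1.36 CPM and MSH3 at 1.94, 1.13 and 1.51 CPM in 22Rv1 and 16.9, 16.4 and 15.7 CPM in DU145. Both were higher in every DU145 library, and 87.7% of all tested genes were likewise without overlap between the lines. With library totals PMS2 lost its call and 6 members favoured DU145. PCNA, the sliding clamp, and EXO1, the exonuclease, had log2 differences of 0.81 and -1.67.

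Other tumour suppressors and oncogenes of prostate cancer gave 6 members higher in 22Rv1 and 12 in DU145 of 19 tested. MYCN had 2737 reads in 22Rv1 and 2 in DU145, a ratio of 1571 in favour of 22Rv1 (95% interval 435 to 12969.8), and MYC was at 268 ± 6.63 against 98.6 ± 1.48 CPM. BRCA2 was at 8.32, 6.34 and 9.77 CPM in 22Rv1 and 80.3, 87.4 and 87.4 CPM in DU145 (log2 difference -3.34, SE 0.10). STK11, a kinase that activates AMPK, was at 139.6 ± 8.18 against 61.6 ± 4.25 CPM. Of the ETS genes that TMPRSS2 fusions involve, ETV1 had a log2 difference of 2.93, ETV5 one of -1.40, ETV4 did not pass the threshold (35.8 against 34.5 CPM) and ERG had 6 and 11 reads, below the filter. NF1 and EZH2 had log2 differences of -1.0 and -1.74. The median of the list was -0.59.

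Genes of G2/M and mitosis were higher in DU145 for 23 of 25 members, with a median log2 difference of -1.28. None was called higher in 22Rv1, but CDK1 was so called under 4 alternatives (library totals, fits with more libraries, and without replicate 1 of 22Rv1) and CCNA2 with library totals. MKI67, the proliferation antigen Ki-67, was read at 269.9, 225 and 239 CPM in 22Rv1 and 1164, 1285 and 1304 CPM in DU145, log2 difference -2.35 (SE 0.067). KIF23 and CENPE, motors of the spindle, had log2 differences of -2.37 and -2.26, TOP2A was at 324 ± 14.3 against 849 ± 6.99 CPM and AURKA at 46.2 ± 1.9 against 188 ± 1.85 CPM. CDK1 and CCNA2, the kinase and cyclin of mitotic entry, did not pass the threshold, at 203 and 113 CPM against 193 and 109 CPM.

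Nuclear envelope and lamina genes, to which the study's target belongs, were split evenly, 12 and 12 of 25, with a median log2 difference of 0.01 and no difference of 4-fold or more. EMD, which encodes the inner nuclear membrane protein emerin, was read at 63.8, 66.1 and 59.6 CPM in 22Rv1 and 48.2, 50.4 and 43.2 CPM in DU145, log2 difference 0.41 (SE 0.061, edgeR adjusted p = 4.25e-06). The groups did not overlap, as for 87.7% of all tested genes, and the difference was small beside those above. LMNA, the source of A-type lamins that emerin binds, was at 246, 243 and 228 CPM in 22Rv1 and 855, 903 and 859 CPM in DU145 (log2 difference -1.87, SE 0.044). Of the B-type lamins, LMNB2 had a log2 difference of -0.77 and LMNB1 was at 174 ± 2.54 against 155 ± 1.87 CPM. Of the links to the cytoskeleton, SUN1 and SUN2 were higher in 22Rv1 (0.62 and 0.91) and SYNE1 and SYNE2 in DU145 (-1.75 and -0.88). The call of SYNE2 was lost without replicate 3 of 22Rv1 (edgeR adjusted p = 0.0599), and without replicate 2 or 3 of DU145 (0.0509 and 0.0535). LBR, the lamin B receptor, had a log2 difference of -1.18, and CBX5, the heterochromatin protein HP1-alpha that it binds, one of 1.69. BANF1, which links emerin to DNA, was at 172 and 194 CPM.

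Mitochondrially encoded genes were higher in DU145 for all 13 members under every scaling tried, with a median log2 difference of -3.66. MT-CO1 was read at 2255, 1724 and 1862 CPM in 22Rv1 and 18692, 18667 and 19328 CPM in DU145, and MT-ND1 at 361, 276 and 298 CPM in 22Rv1 and 7638, 7827 and 7541 CPM in DU145. The differences were not of 1 size: MT-ND3 had a log2 difference of -1.59, MT-ND2 one of -4.76 and MT-ATP8 one of -8.68. MT-ATP8 and MT-ND4L overlap their neighbours on the mitochondrial genome and this genome has near-identical copies in the nucleus, so reads could be assigned differently under the gene sets of the 2 tables; this was not tested. Ribosomal protein genes were higher in 22Rv1 for 25 of 36 members and in DU145 for 7, or 4 with library totals, and had a median log2 difference of 0.41. RPS14, RPL15 and RPS9 had log2 differences of 1.77, 1.51 and 1.43, and RPL37 one of -1.32. RPLP0 was at 2587 ± 40.01 against 1492 ± 47.3 CPM. RPS2 was not called (0.04) and was called higher in 22Rv1 with library totals (0.25). These genes have many processed copies, which the 22Rv1 table lists and the DU145 table mostly does not.

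Antioxidant genes under NRF2 were higher in DU145 for 14 of 22 members and in 22Rv1 for 6 (median log2 difference -0.56). NQO1, a quinone reductase, was at 18.1, 15.8 and 19.1 CPM in 22Rv1 and 476, 483 and 471 CPM in DU145, and TXNRD1, thioredoxin reductase, at 253 ± 10.1 against 1915 ± 59.96 CPM. KEAP1, the adaptor that marks NRF2 for degradation, was at 81.2 ± 2.6 against 35.3 ± 1.19 CPM, and NFE2L2, which encodes NRF2, at 34.2 ± 1.2 against 86.9 ± 2.48 CPM. SLC3A2, the heavy chain of the cystine and leucine exchangers, was higher in 22Rv1, at 1117 ± 7.76 against 145 ± 1.08 CPM, while SLC7A11, the cystine light chain, had a log2 difference of -0.58. FTH1, the ferritin heavy chain, was at 851 ± 8.57 against 2562 ± 55 CPM and has processed copies.

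HOX genes, which record position along the body axis, differed by cluster. Of 32 tested members of the 4 clusters, 9 were higher in 22Rv1 and 17 in DU145, with a median log2 difference of -0.61. In HOXA, 8 of 11 were higher in DU145 and 1 in 22Rv1, and in HOXB 7 of 9 and 2. In HOXC, 3 of 9 were higher in 22Rv1 and 2 in DU145, and in HOXD all 3 tested members were higher in 22Rv1. HOXA11 and HOXA10 had log2 differences of -6.12 and -4.81, and HOXB7 was at 5.33 ± 0.572 against 36.2 ± 0.753 CPM. Next to that run of DU145-high HOXB genes, HOXB13 at the 5' end of the same cluster was confined to 22Rv1 among these 6 libraries. HOXC12 was at 21.1, 21.9 and 22.3 CPM in 22Rv1 and 0 in DU145, at least 660.0-fold higher, and HOXC13 had a log2 difference of 3.43. HOXA4 had 254 reads in 22Rv1 and 2 in DU145. Antisense transcripts run through these clusters and strandedness is not stated, so their reads cannot be told apart from those of the genes.

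Stem-like and progenitor genes favoured 22Rv1 in 12 of 22 tested members and DU145 in 8, with a median log2 difference of 1.31. NOTCH3 was at 299, 272 and 245 CPM in 22Rv1 and 9.12, 9.85 and 9.61 CPM in DU145, NOTCH1 had a log2 difference of 2.05 and NOTCH2 one of -1.23. HES1, a target of Notch, was at 39.98 ± 3.68 against 2.48 ± 0.425 CPM. ALDH1A1 was at 13.6 ± 0.447 against 0.163 ± 0.0896 CPM, while ALDH1A3, given with the androgen-induced genes, lay with DU145. LGR5 had 161 reads in 22Rv1 and 3 in DU145, a ratio of 61.6 (95% interval 21.1 to 299), and CD44, the hyaluronan receptor, was at 82.2 ± 2.85 against 295 ± 7.05 CPM.

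Cancer-testis genes, silent in most adult tissues outside the germ line, had the largest median of the 31 lists. Of 22 members 10 could be tested, 9 are absent from the 22Rv1 table and 3 were below the filter. Of the 10, 9 were higher in 22Rv1 and none was called in DU145. Their median log2 difference was 13.27 as fitted and 10.39 with the 7 members at 0 in DU145 set to their bound. Those 7 passed the filter through 22Rv1 alone, and absent members could not be called in DU145. The median, its rank and the lack of DU145 calls thus depend on which members could be tested. MAGEA1, MAGEA2B and CTAG1A, given below, are not members of the list and are named as large differences. MAGEA4 (chrX:151912509-151925170, plus strand) was read at 230.2, 239 and 247 CPM in 22Rv1 and at 0 in DU145, at least 7243-fold higher. CTAG2 was at 153, 164 and 149 CPM and SSX2 at 20.1, 17.3 and 30.3 CPM in 22Rv1, and both were at 0 in DU145. CTAG1A and CTAG1B, near-identical copies that both encode NY-ESO-1, were at 136 ± 14.5 and 213 ± 21.6 CPM in 22Rv1 and at 0 in DU145. MAGEA1, MAGEA3 and MAGEA6 were likewise at 98.9, 126 and 82.5 CPM in 22Rv1 and at 0 in DU145, where reads of the near-identical MAGEA3, MAGEA6 and MAGEA2B may be shared. MAGEA2B was at 86.7, 92.4 and 49.4 CPM in the 3 22Rv1 libraries, an uneven set, and its edgeR adjusted p was 0.00789. It became 0.0644 without replicate 1 of 22Rv1 and 0.0547 without replicate 2. PRAME was present in both lines at 53.3 ± 1.31 and 25.1 ± 1.35 CPM. BRDT and DDX43, at 23.02 and 23.09 CPM in DU145, are absent from the 22Rv1 table, and with absent genes set to 0 they become the 2 members that favour DU145.

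**Figure D2:**
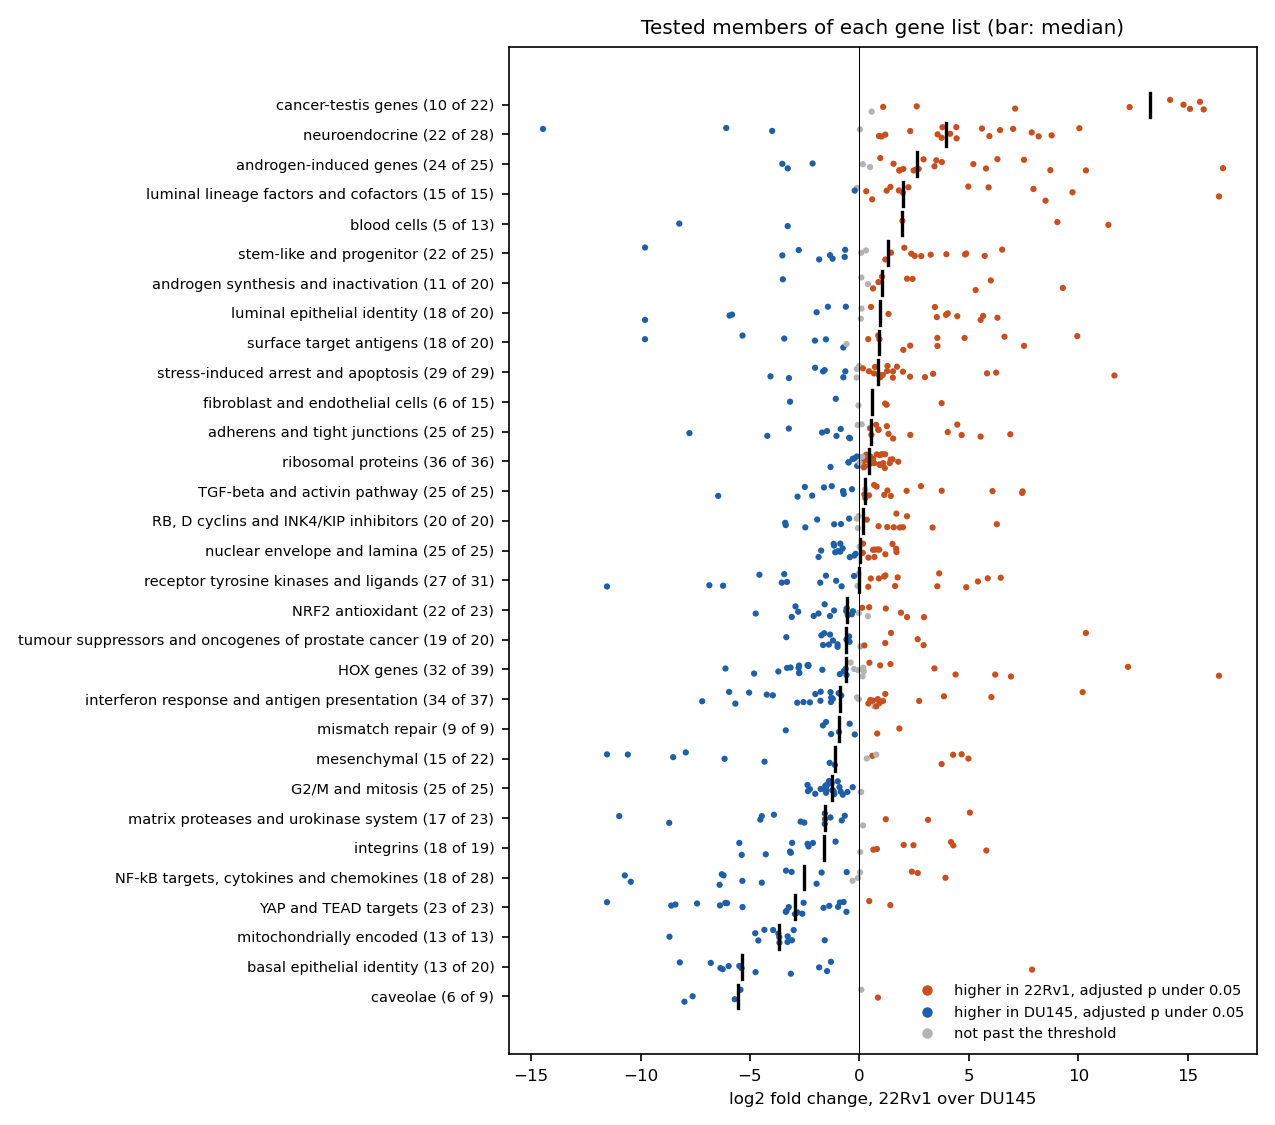
Log2 fold change of 22Rv1 over DU145 for the tested members of 31 gene lists (x axis; 1 row per list with tested of all members, ordered by median, black bar; points coloured by call). Cancer-testis, neuroendocrine and androgen-induced genes lie mostly to the right, and caveolae, basal and YAP and TEAD genes to the left.

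Among the largest differences of all, by the rule of at least 20 CPM in the higher line, the 12 in favour of 22Rv1 all had 0 reads in DU145. The ranking uses fitted fold changes, which for 0 reads follow the level of the other line and so favour such genes. KLK4, HOXB13 and 8 cancer-testis genes fill 10 of these 12 places. The others were PGAM2, the muscle phosphoglycerate mutase, at 115, 112 and 115 CPM in 22Rv1, and CHRNA2, a neuronal nicotinic receptor subunit, at 98.1, 91.2 and 93.5 CPM. In favour of DU145 the 12 were UCHL1, ETS1, COMMD3-BMI1, ANXA2, AXL, AKR1B1, MMP1, CXCL8, TM4SF1, VIM, TGM2 and IL18. ANXA2 (chr15:60347134-60402883, minus strand), a calcium-dependent membrane binder that serves as a plasminogen receptor, was at 0.334, 0.356 and 0.308 CPM in 22Rv1 and 1609, 1656 and 1561 CPM in DU145 (log2 difference -12.24, SE 0.082). ETS1, a transcription factor of invasive and endothelial cells, had 2 reads in 22Rv1 and was at 236, 246 and 242 CPM in DU145. TGM2, a transglutaminase, was at 0.308 ± 0.167 against 508 ± 27.9 CPM, AKR1B1, an aldose reductase, at 0.0729 ± 0.0638 against 138 ± 2.5 CPM and TM4SF1, a tetraspanin-like surface protein, at 0.135 ± 0.0427 against 207 ± 3.49 CPM. COMMD3-BMI1 is a readthrough that shares exons with COMMD3 and BMI1, so its reads are uncertain. It was at 34.9, 22.7 and 16.5 CPM in DU145, and its edgeR adjusted p went from 0.011 to 0.0752 without replicate 2 of DU145. BMI1 itself, a Polycomb protein, was at 29.1 ± 1.63 against 199.6 ± 6.33 CPM.

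Counts fell off with size in both directions. A log2 difference of at least 5 was reached by 891 called genes in favour of 22Rv1 and 516 in favour of DU145, and one of at least 8 by 270 and 113. Genes with 0 reads in DU145 made up 184 of those called higher in 22Rv1, 25 of them at 20 CPM or more, and genes with 0 reads in 22Rv1 made up 86 of those called higher in DU145, 6 of them at 20 CPM or more. The table of 22Rv1 lists no gene with fewer than 2 reads over its 6 libraries, whereas that of DU145 lists genes with none, so genes silent in 22Rv1 enter the joined set less readily than genes silent in DU145.

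**Figure D3:**
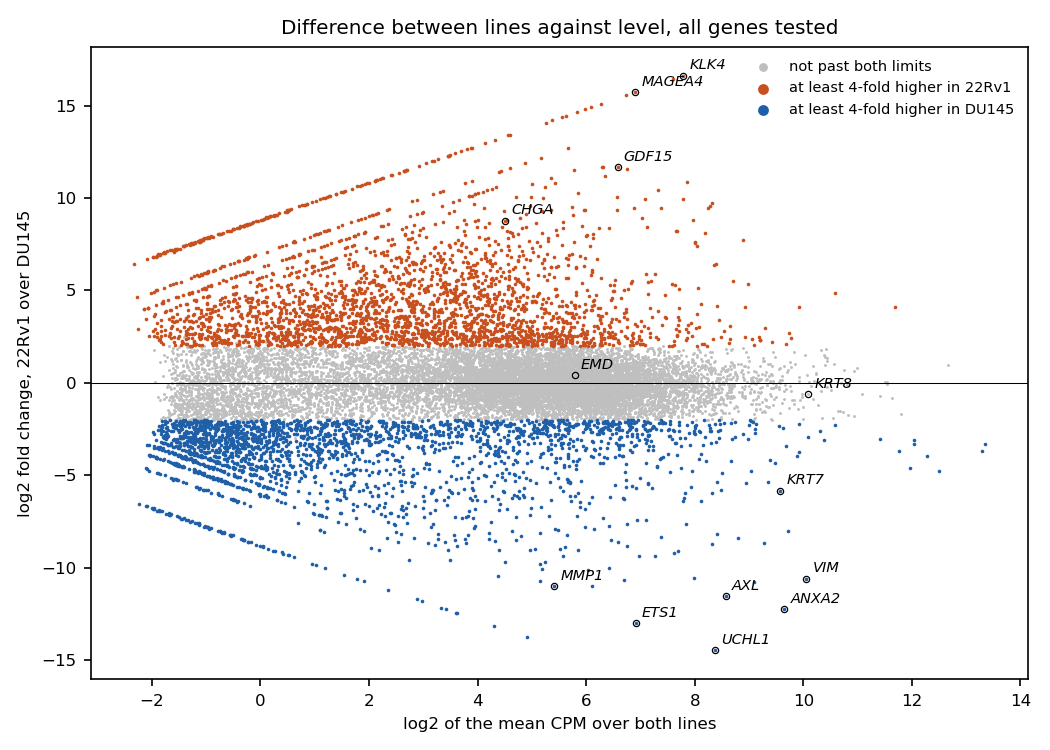
Log2 fold change of 22Rv1 over DU145 (y axis) against log2 of the mean CPM over both lines (x axis) for the tested genes, apart from some not reported here. Coloured points are called and at least 4-fold apart (2802 and 2490 genes over all 17640 tested). The straight rows of points at the outer edges are genes with 0 or a few reads in 1 line, whose fitted fold changes follow the level of the other line.

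Genes of the DU145 table with no entry in the 22Rv1 table could not be compared. There were 15306 of them, 5534 without a read in the DU145 controls, 478 at 1 CPM or more and 39 at 20 CPM or more, and together they took 0.494% to 0.597% of the DU145 reads. The 8 with the highest DU145 levels, scaled by library totals, began with PRRC2B (281 ± 15.5 CPM), whose symbol stands under another identifier in the 22Rv1 table, so that its absence comes from the gene sets. MTRNR2L12 and MTRNR2L8, nuclear copies of mitochondrial ribosomal RNA sequence, were at 188 ± 6.39 and 108 ± 4.90 CPM. LY6K, a GPI-anchored cancer-testis antigen, was at 189.5, 183.9 and 180.1 CPM in the 3 DU145 libraries. ADD2, an adducin of the membrane skeleton, was at 173 ± 5.60 CPM, CAVIN2 at 156 ± 5.55 CPM, the long noncoding LINC00707 at 148 ± 4.32 CPM and BNC1, a zinc finger factor of basal keratinocytes, at 114 ± 2.77 CPM. In the other direction 3766 genes stood only in the 22Rv1 table, of which 2010 are pseudogenes of GENCODE 29 and 1297 are not in that release. They took 1.13% to 1.20% of the 22Rv1 reads.

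Markers of cells other than epithelium stayed low in both lines with a few exceptions. Of 15 fibroblast and endothelial genes 6 could be tested, 3 higher in 22Rv1 and 2 in DU145. COL1A1, the collagen I chain, was at 23.6, 23.2 and 20.3 CPM in 22Rv1 and 1.68, 1.31 and 2.02 CPM in DU145, but its partner chain COL1A2 was at 0.784 and 1.69 CPM (not called without replicate 1 of DU145, edgeR adjusted p = 0.0519) and DCN at 0.107 and 1.17 CPM. COL3A1 was at 0.507 ± 0.13 against 0.194 ± 0.0805 CPM, and its call (edgeR adjusted p = 0.0318) was lost in 8 of the 13 alternatives. ACTA2 did not pass the threshold (1.62 against 1.7 CPM). Of 13 blood genes 5 were tested. CD68, a lysosomal protein of macrophages also made by tumour cells, was at 0.267, 0.474 and 0.308 CPM in 22Rv1 and at 99.4 to 101 CPM in DU145. HBA1, an alpha-globin gene with a near-identical neighbour, was at 11.6, 11.4 and 12 CPM in 22Rv1 and 0 in DU145. PTPRC, the pan-leukocyte antigen, had 21 reads over the DU145 controls and is absent from the 22Rv1 table, and HBB had 0 reads in 22Rv1 and 30 in DU145.

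By chromosome, the median log2 difference ran from -0.67 on chromosome 14 (587 genes tested) to 0.54 on chromosome 19 (1275 genes). Chromosome 19, which holds the kallikrein cluster, had 275 large differences in favour of 22Rv1 and 83 in favour of DU145. The X chromosome, which holds EMD and the MAGE and CTAG genes, had a median of 0.46 over 544 genes, with 136 and 43 large differences. Chromosomes 22 and 3 had medians of 0.49 and 0.37. Chromosomes 21 and 10 had medians of -0.50 and -0.45, with 31 and 87 large differences in favour of 22Rv1 against 40 and 130 in favour of DU145. Copy number was not analysed here.

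The same contrast was then made in the EMD knockdown libraries, 3 of each line, which the choice of control libraries did not use but which share the batch and table of their line. EMD, scaled over all 18 libraries, was at 20.7, 18.9 and 16.9 CPM in the 22Rv1 knockdown libraries against 65.5, 68.7 and 61.3 CPM in their controls, and at 5.10, 5.08 and 5.56 CPM in the DU145 knockdown libraries against 48.1, 52.0 and 44.1 CPM. In that contrast 17088 genes were tested, and 42.5% were called higher in 22Rv1 and 44.8% higher in DU145. Of the 2802 genes with a large difference in favour of 22Rv1, 2405 were tested again, 2196 were called in the same direction and 65 in the opposite one. Of the 2490 in favour of DU145, 2302 were tested again, 2239 were called in the same direction and 6 in the opposite one. FOLH1 had a log2 difference of 9.22 in the knockdown libraries, CHGA one of 11.07, CAV1 one of -7.00 and LAMB3 one of -8.25. For list members, the share over all genes called in the controls was not counted, so their numbers stand without a background. Of 509 list members called in the controls and tested again, 454 were called in the same direction and 37 in the opposite one. Of those 37, 3 had a large difference in the controls: DLL3, BMP7 and HOXD8, named after their values were seen. DLL3 had a log2 difference of -1.41 in the knockdown libraries: on the scale of 18 libraries it was at 34.0, 33.0 and 27.8 CPM in the 22Rv1 controls and at 3.49, 2.41 and 3.01 CPM in the 22Rv1 knockdown libraries, against 5.70 to 6.49 CPM and 7.55 to 8.54 CPM in DU145. BMP7 had one of -2.04, with 31.7 to 32.1 CPM in the 22Rv1 controls and 1.82 to 3.96 CPM in their knockdown libraries, and 0.313 to 0.712 CPM and 11.4 to 13.5 CPM in DU145. HOXD8 had one of -1.07. For DLL3 and BMP7 the knockdown libraries of DU145 all lay above those of 22Rv1, the reverse of the controls. KRT8, RB1, TAPBP, SNAI1 and PMS2 are among the other members called in the opposite direction. Names of the DU145 knockdown columns speak of a short hairpin where the protocol names an siRNA.

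**Figure D4:**
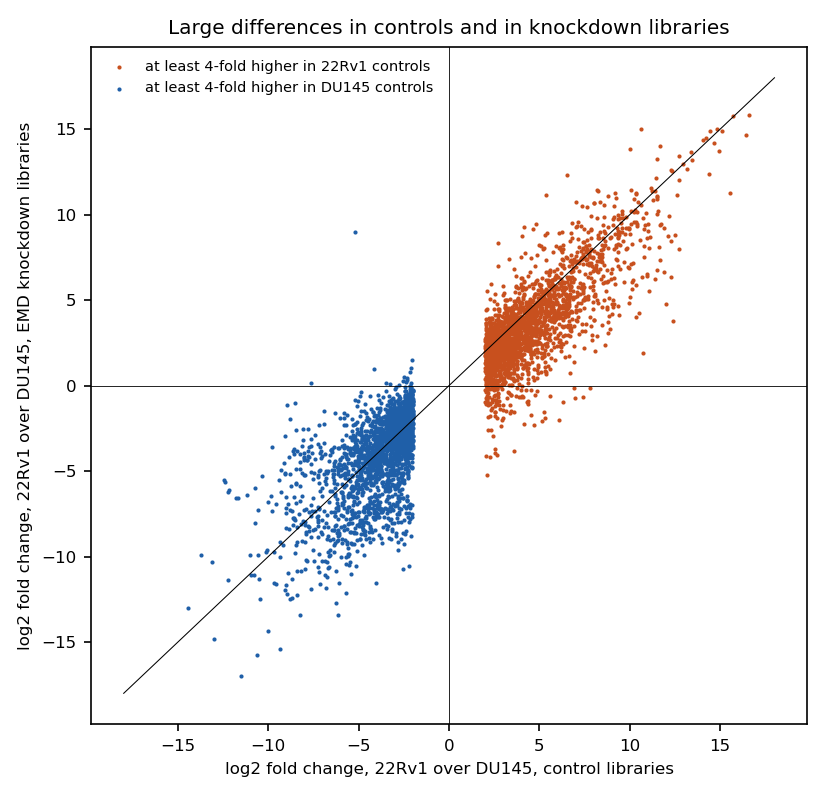
Log2 fold change of 22Rv1 over DU145 in the EMD knockdown libraries (y axis) against the same in the control libraries (x axis). Points are genes at least 4-fold apart and called in the controls, apart from some not reported here. The diagonal marks equality. Most points keep their sign. Over all such genes, shown or not, 2196 of 2405 high in 22Rv1 and 2239 of 2302 high in DU145 were called the same way.

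The controls of C4-2B, a castration-resistant derivative of LNCaP, give a point of reference, again with its own table and batch. Of genes with a large difference in favour of 22Rv1 that all 3 tables hold, the C4-2B level was nearer to that of 22Rv1, on the log2 scale, for 1204 of 2375 (50.7%). Of those in favour of DU145 it was nearer to 22Rv1 for 1421 of 1919 (74%). On the scale of 18 libraries, FOLH1 was at 1274 ± 3.18 CPM in C4-2B, against 455 ± 9.75 CPM in 22Rv1, and KLK4 at 97.0 ± 3.85 CPM against 455 ± 6.68 CPM. The cancer-testis genes differed among themselves. MAGEA1, MAGEA3 and MAGEA6 were at 100.5, 152 and 87.3 CPM in C4-2B, against 102, 130.2 and 85.2 CPM in 22Rv1, MAGEA2B at 80.7 against 78.7 CPM and CTAG2 at 96.8 against 160.2 CPM. MAGEA4 was at 0.553 CPM in C4-2B against 246 CPM, CTAG1A and CTAG1B at 0.259 and 0.107 CPM against 141 and 220 CPM, and SSX2 at 0.935 against 23.3 CPM. PRAME was higher in C4-2B, at 145 against 55.0 CPM; none of these differences was tested.

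**Figure D5:**
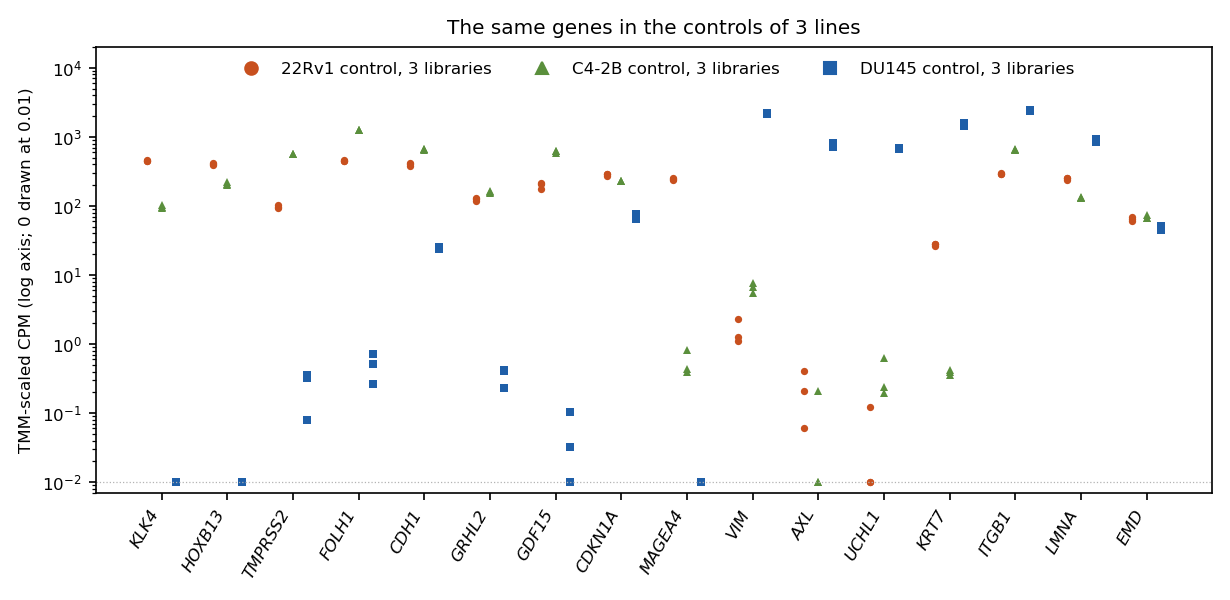
TMM-scaled CPM of selected genes (log axis, 0 drawn at 0.01) in the 3 control libraries each of 22Rv1 (circles), C4-2B (triangles) and DU145 (squares). C4-2B lies with 22Rv1 for HOXB13, FOLH1, CDH1 and VIM, and far below it for MAGEA4, unlike several other MAGEA genes given in the text.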

How the data were processed

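Of 18 RNA libraries, deposited as 1 table per cell line, the controls of 22Rv1 and DU145 (3 each) were compared. The submitters' processing notes name GRCh38 as the build, STAR as the aligner and RSEM 1.3.1 as the counter. The deposited values are expected counts per gene, given by the authors as whole numbers and used as deposited; the rounding, the annotation release and the strandedness are not given in the sources used here. Tables were joined on Ensembl identifiers without versions, which left 21950 genes; 92 spike-in entries and 30 second copies of pseudoautosomal genes of the DU145 table were left out. Symbols and positions came from GENCODE 29 and reference name tables, and promoters from RefSeq (GRCh38.p14).

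In R 4.3.3, low genes were removed by filterByExpr (a CPM worth 10 counts in a library of median size, reached in at least 3 libraries, and 15 counts in all), libraries were scaled by TMM, and the lines were compared with the robust quasi-likelihood F test of edgeR 4.0.16, without covariates. Adjustment was by Benjamini-Hochberg across the 17640 genes, and genes under 0.05 are called. The SE of a log2 fold change is its size divided by the root of F. A large difference is called and has a log2 size of at least 2. The procedure was tested on simulated counts in which few genes changed, whereas 86.8% of tested genes were called here. That setting cannot show how the scaling behaves when most genes differ. Alternatives were library totals, DESeq2 1.42.0, no filter, fits of 12 and 18 libraries, absent genes set to 0, a replicate block, glmTreat and leaving out each library.

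Named genes are the 12 largest differences per direction at 20 CPM or more; in each of 31 lists (704 entries) the 3 largest differences, the 2 highest levels and members that complete a receptor, ligand or complex; EMD; and the 8 absent genes with the highest DU145 level. Some genes these rules pick are not reported here. Further members are named as markers of their group, with values seen. Members, lists and tests were chosen with earlier results of these data known, so lists carry counts and medians and no test. Depth limits low genes most in the shallowest library, of 15602874 reads.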

Additional observations from a re-analysis of the deposited data

Results flagged for a closer look

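For 3 of the largest differences, that between the lines was not the same in control and EMD knockdown libraries, by an interaction term in edgeR over both sets of libraries. For AXL the log2 difference of 22Rv1 over DU145 in controls less that in knockdown libraries was 5.56 (SE 1.29, adjusted p over all genes 0.000981): 22Rv1 had 6, 1 and 13 reads in its controls and 0 in each knockdown library, so the fitted size depends on the prior, while DU145 was at 720, 818 and 780 CPM in controls and 653, 655 and 658 CPM in knockdown libraries. For TM4SF1 it was 5.21 (SE 1.24, adjusted p 0.000773), with 4, 3 and 3 reads in the 22Rv1 controls and 0 in each knockdown library, so that this size depends on the prior too; DU145 was at 207, 217 and 207 CPM in controls and 285, 282 and 259 CPM in knockdown libraries. For VIM it was -0.70 (SE 0.229, adjusted p 0.0156), with 32, 37 and 40 reads in the 22Rv1 controls and 62, 41 and 28 in the knockdown libraries. In data outside the comparison, 39 genes at 20 CPM or more in DU145 have no entry in the 22Rv1 table, 3 of them with their symbol under another identifier, and the 3 DU145 control libraries held 11 reads of spike-in entries (4, 1 and 6).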

How the results depend on the processing

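The counts of genes called higher in 22Rv1 (7673) and in DU145 (7633), and of those at least 4-fold apart (2802 and 2490), stayed within 1.5 times under library totals, DESeq2, no filter, fits of 12 or 18 libraries, absent genes set to 0 and each left-out library. A test against a fold of 2 (glmTreat) in place of the 4-fold limit gave 4245 and 3990, since its limit is lower by construction. Leaving out 1 library gave 7574 to 7784 and 7368 to 7775 calls, and 2859 to 2974 and 2507 to 2805 large ones. With a replicate block the counts were 7500 and 7482 calls and 2804 and 2542 large ones; the deviations of same-numbered libraries correlated at 0.00903, 0.0099 and -0.0167, so the numbers do not pair the lines. Of 269 named genes, 20 changed their call or direction under at least 1 of the alternatives run.

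The genes that changed direction all lay near 0. With library totals, which shift every log2 difference upward, ACTA2 stood at 0.16, BANF1 at 0.0305, CDK6 at 0.14, CTNNA1 at 0.13, KLF5 at 0.0926, MERTK at 0.17 and NFKBIA at 0.14. Leaving out 1 library moved ACTA2 between -0.14 and 0.0485, ETV4 between -0.0105 and 0.114 and MERTK between -0.0668 and 0.0431.

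Of the 62 counts of list members, 48 stayed within 1.5 times under all alternatives run. The fit of 18 libraries, which tests fewer members by construction, lowered the neuroendocrine count in favour of 22Rv1 from 18 to 8, the mesenchymal one from 5 to 3 and the blood one from 3 to 1, the caveolar count in favour of DU145 from 4 to 2 and the blood one from 2 to 1, and left none of the basal genes in favour of 22Rv1; the fibroblast and endothelial count in favour of DU145 fell from 2 to 0 with 6 members tested in both. Fibroblast and endothelial members in favour of 22Rv1 fell from 3 to 1 with DESeq2 and with the replicate block, and those in favour of DU145 from 2 to 1 without replicate 1 of DU145. Lineage factors in favour of DU145 were 2 with DESeq2. The other moves stand beside their lists. Genes called under an alternative only, beside those given in the report, were ETV4 and ITGAV with library totals (0.25 and 0.24), CTNNA1 and KLF5 with DESeq2 (-0.10 and -0.14) and CDK6 without replicate 1 of 22Rv1 (-0.14).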
